A study of Mus musculus with 3 samples.

Results

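The genes described here encode the enzymes that build cholesterol and fatty acids, together with the proteins that control this synthesis and move sterols between membranes. They were taken from a list of 30 genes, and the probes of each were found by matching the transcript names in the scanner files to RefSeq transcripts. Of the 30, 29 had a probe and all 29 were tested, among 18498 genes and transcripts in all. Idi1, an isomerase of the mevalonate steps, had no matched probe and is not analysed here.

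The samples were cultures of primary fibroblasts (MEFs), cells of connective tissue taken from E12.5 mouse embryos and kept untreated in DMEM with 10% FBS. Each of 3 Agilent arrays with 2 colours held RNA of a culture labelled WT in Cy5 and RNA of a culture labelled SA1-KO, genotype SA1-null, in Cy3. SA1 belongs to cohesin, the ring-shaped complex that holds chromosomes together and folds them, and the series asks what it does in gene regulation. The labels call the arrays biological replicates but do not say which embryos the cultures came from, so p-values measure the spread between these arrays. With the same dye for the same label on each array, dye and label cannot be told apart.

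Every ratio is given on the log2 scale, with Cy3 (labelled SA1-null) divided by Cy5 (labelled wild type). The gene for SA1 itself, Stag1, read 3.34, 3.74 and 3.47 on the 3 arrays, higher in the channel labelled SA1-null (3.52 ± 0.21, SD, n = 3, limma adjusted p = 0.0276). This goes against the labels, so every direction below is that of the labelled channels, and every sign would turn with them. Replicate 1 was on a slide of its own and was read by another version of the scanner software than replicates 2 and 3, and its ratios were the widest (SD over all genes 0.84, against 0.34 and 0.54). Of the spots other than controls, 61.3% to 66.6% were well above background in Cy3 and 62.6% to 67.7% in Cy5.

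Cells make cholesterol from acetyl-CoA through mevalonate, farnesyl diphosphate, squalene and lanosterol, and they make fatty acids from the same acetyl-CoA. Both routes are switched on by the SREBP transcription factors, which Scap carries out of the endoplasmic reticulum when sterol is scarce and which Insig proteins hold back when it is plentiful. SREBP binds sterol regulatory elements in the promoters of its target genes, usually beside sites of the factors NF-Y and Sp1.

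Because the genes share this control, the bases ahead of their starts are shown for 6 of them. These are Hmgcs1, whose promoter held an exact match to a sterol regulatory element, Nsdhl, Cyp51 and Lss, the 3 sterol enzymes with the highest mean ratios, Ebp, the sterol enzyme below 0 on all arrays, and the fatty acid elongase Elovl6. Each line gives the 150 bases before the start, 5′ to 3′ on the gene's strand, from RefSeq on GRCm38.p6. Capitals mark matches to CCAAT, the NF-Y core, and to TCACNCCAC, a sterol regulatory element, with up to 1 mismatch, on either strand. The Hmgcs1 stretch is chr13:119690201-119690350 on the plus strand, Lss is chr10:76531455-76531604 on the plus strand, Cyp51 is chr5:4104698-4104847 on the minus strand, Nsdhl is chrX:72918371-72918520 on the plus strand, Ebp is chrX:8193513-8193662 on the minus strand and Elovl6 is chr3:129532236-129532385 on the plus strand.
Hmgcs1: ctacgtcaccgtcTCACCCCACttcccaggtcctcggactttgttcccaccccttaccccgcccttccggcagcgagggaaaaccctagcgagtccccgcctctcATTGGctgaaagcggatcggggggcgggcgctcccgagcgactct
Lss: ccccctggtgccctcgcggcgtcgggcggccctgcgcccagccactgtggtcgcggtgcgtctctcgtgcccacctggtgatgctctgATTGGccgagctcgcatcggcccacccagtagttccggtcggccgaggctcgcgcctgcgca
Cyp51: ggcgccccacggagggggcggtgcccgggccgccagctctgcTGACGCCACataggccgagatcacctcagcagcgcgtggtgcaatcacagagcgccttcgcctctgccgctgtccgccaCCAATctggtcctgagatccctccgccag
Nsdhl: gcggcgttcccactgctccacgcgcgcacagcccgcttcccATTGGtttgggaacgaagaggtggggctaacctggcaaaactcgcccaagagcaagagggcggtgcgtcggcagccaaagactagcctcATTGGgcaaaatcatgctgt
Ebp: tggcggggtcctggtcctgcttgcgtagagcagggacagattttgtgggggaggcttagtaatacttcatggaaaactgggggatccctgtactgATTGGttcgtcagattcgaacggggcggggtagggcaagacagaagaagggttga
Elovl6: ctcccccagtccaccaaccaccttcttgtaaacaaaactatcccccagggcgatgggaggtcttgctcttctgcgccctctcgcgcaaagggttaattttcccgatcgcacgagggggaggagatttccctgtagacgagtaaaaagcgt

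Promoter sequences were found for 24 of the 30 genes, some with several starts, which gave 30 promoters. The genes without one were Fdps, Fdft1, Sqle, Scd1, Npc1 and Stard4. The search covered the 250 bases before each start, on both strands. CCAAT occurred in 63.3% of these promoters, against 33.8% of all 32851 promoters in the table. GGGCGG, the core of Sp1 sites, occurred in 73.3%, against 32.7% of all. By gene, 14 of 15 sterol enzyme genes, Idi1 included, held CCAAT, against 1 of 4 fatty acid genes, Fasn. GGGCGG divided in the same way, with 14 of 15 against 1 of 4, Acly. A gene was counted if any of its starts held the match, and no such share by gene was taken over all genes. An exact TCACNCCAC was present for Hmgcs1 alone, and 1.05% of all promoters held it. With up to 1 mismatch it was present in 33.3% of the promoters, against 20.7% of all. In the lines above, the CCAAT box of Ebp, whose ratio was below 0 on all arrays, stands beside those of Lss, Cyp51 and Nsdhl, whose ratios were above 0. A match describes letters and not a bound site.

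Most of the genes had ratios above 0, and none passed the test. Of the 29, 22 had a mean ratio above 0, with a median over genes of 0.43, beside 8444 of 18498 genes (45.6%) and a median of -0.02 over all genes tested. With median centring in place of loess normalization, which moved the median of all genes to -0.30, 16 of the 29 were above 0. In limma, 0 of the 29 passed an adjusted p of 0.05, where 0.308% of all genes did, and the smallest adjusted p among the 29 was 0.499, for Scd1. At an unadjusted p under 0.05, 7 of the 29 had ratios above 0, higher in Cy3 (labelled SA1-null), where 2.32% of all genes were, and 1 was lower, where 5.16% were. The 7 were Mvk, Mvd, Fdft1, Nsdhl, Cyp51, Acly and Scd1, and the 1 was Ebp. Above 0 on all 3 arrays were 11 of the 29, beside 13.3% of all genes, and below 0 on all 3 was 1, Ebp, beside 19.1%.

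**Figure D1:**
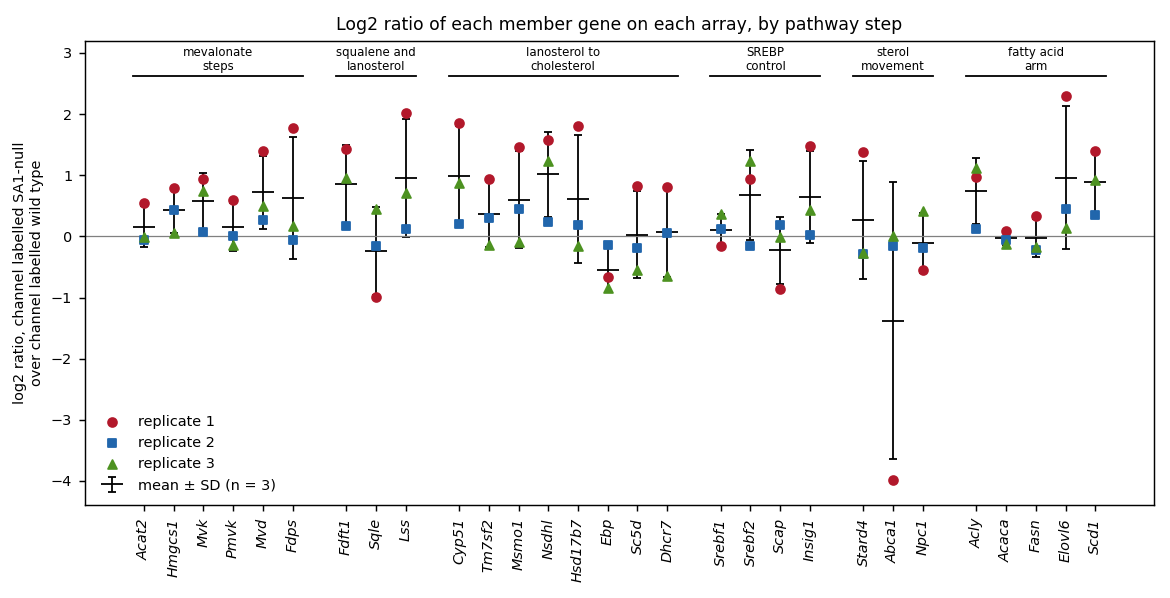
Log2 ratio of Cy3, labelled SA1-null, to Cy5, labelled wild type (vertical axis) for each of the 29 tested genes, ordered by pathway step. Points are single arrays and bars are mean ± SD over the 3 arrays. Replicate 1 holds the extremes, from 2.30 for Elovl6 to -3.99 for Abca1, while replicate 2 lies between -0.29 and 0.45.

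The shift came mainly from replicate 1. The median over the 29 genes was 0.94 on replicate 1, 0.06 on replicate 2 and 0.13 on replicate 3, while the medians over all genes were -0.04, -0.01 and -0.03. Replicate 1 gave the highest of the 3 ratios for 21 of the 29 genes (72.4%), as it did for 34.3% of all genes. Leaving it out took the sterol arm median from 0.58 to 0.14 and the fatty acid arm median from 0.74 to 0.29, and these are the values of slide 2 alone.

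The enzymes from acetyl-CoA to farnesyl diphosphate were above 0 on average for 6 of 6 genes, between 0.16 and 0.72. The array medians of the 6 were 0.87, 0.03 and 0.12. With median centring Acat2 (-0.02), Hmgcs1 (-0.12) and Pmvk (-0.31) were below 0, where the median of all genes was -0.30. Mvd, which makes isopentenyl diphosphate from mevalonate diphosphate, read 1.40, 0.27 and 0.50. Before background correction and loess, its Cy3 spot signals were 1844, 879 and 1458 and its Cy5 signals 2246, 1449 and 1089. Loess sets each array's ratios around 0, so the ratio of the raw signals is not the ratio given here. Its mean was 0.72 ± 0.59 (SD, n = 3, 1.65-fold, limma adjusted p = 0.657). Replicate 1 stood apart, and the other arrays were close to each other.

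Mvk, the kinase of mevalonate, read 0.94, 0.06 and 0.75, with a mean of 0.58 ± 0.46 (limma adjusted p = 0.665). Its uncorrected signals were 1304, 416 and 1181 in Cy3 and 2184, 793.5 and 722.5 in Cy5. Its second probe gave the same picture, at 0.61 ± 0.51. Hmgcs1, which makes HMG-CoA, read 0.80, 0.44 and 0.06. Before correction its Cy3 signals were 16656, 8460.5 and 8168, and its Cy5 signals 33055.9, 12924.5 and 10379. Its mean was 0.43 ± 0.37 (limma adjusted p = 0.703), and its second probe was at 0.74 ± 0.36. With median centring Hmgcs1 was at -0.12, where the median of all genes was -0.30.

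Fdps, the synthase of farnesyl diphosphate, was high on replicate 1 alone, at 1.77 against -0.06 and 0.18. Its mean of 0.63 ± 1.00 is smaller than the spread. Pmvk, the next kinase after Mvk (0.16 ± 0.39), and Acat2, the thiolase that starts the route (0.16 ± 0.34), were both near 0 outside replicate 1.

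Of the 3 genes around squalene and lanosterol, 2 had means above 0. Fdft1, squalene synthase, read 1.43, 0.17 and 0.95. Its Cy3 signals of 3456, 1324.5 and 3391 stood against Cy5 signals of 4168, 2352.5 and 1972. Its mean was 0.85 ± 0.64 (limma adjusted p = 0.609), and its second probe was not kept. Lss, which closes squalene epoxide into lanosterol, read 2.02, 0.12 and 0.72, with a mean of 0.95 ± 0.97 (limma adjusted p = 0.683). The signals of Lss were 918, 274 and 708 in Cy3 against 686, 507 and 438 in Cy5. The second Lss probe read 1.71, -0.15 and 0.27 (0.61 ± 0.97), so it was below 0 on replicate 2. By the probes that stand for the genes, Fdft1 and Lss were above 0 on all arrays and lowest on replicate 2.

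Sqle, squalene epoxidase, stands between those enzymes in the pathway and did not follow them on replicate 1. It read -0.99, -0.16 and 0.44, so its sign differed between the arrays, with a mean of -0.24 ± 0.72 (limma adjusted p = 0.851). Its uncorrected Cy5 signal was 48229.5 on replicate 1, against 5195 and 3700 on the others, while Cy3 was 7073, 2313 and 4243.5. It had 1 probe, so no second probe checks this.

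Of the 8 genes from lanosterol to cholesterol, 7 had means above 0. The array medians of the 8 were 1.20, 0.20 and -0.15. With median centring Sc5d (-0.43) and Dhcr7 (-0.32) were below 0, where the median of all genes was -0.30. Nsdhl, a dehydrogenase that helps remove the methyl groups of lanosterol, read 1.58, 0.23 and 1.24, with a mean of 1.02 ± 0.70 (2.02-fold, limma adjusted p = 0.55). The signals of Nsdhl were 1372, 301 and 820 in Cy3 and 1456, 499 and 352 in Cy5. Its other probes were at 0.83 ± 0.57 and 0.63 ± 0.46. Cyp51, the demethylase of lanosterol, read 1.86, 0.21 and 0.87, with a mean of 0.98 ± 0.83 (limma adjusted p = 0.651). Its signals were 2000, 542 and 1395.5 in Cy3 and 1743.5, 930 and 796 in Cy5, and its other probes were at 0.78 ± 1.04 and 0.84 ± 0.74. For both genes all 3 probes and all 3 arrays were above 0.

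Ebp, the sterol isomerase, was the exception in the other direction. It read -0.67, -0.14 and -0.84, with a mean of -0.55 ± 0.37 (limma adjusted p = 0.657). Its uncorrected Cy3 signals were 5280, 6160.5 and 5195, and its Cy5 signals were 28367.7, 13942 and 12148. All 3 ratios were below 0, and after normalization its Cy5 signals were close to each other, at 13.48, 13.48 and 13.57 (log2).

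By the probes that stand for the genes, the remaining late enzymes were high on replicate 1 and not on replicate 3. The methylsterol oxidase Msmo1 read 1.46, 0.44 and -0.09, and the ketosterol reductase Hsd17b7 read 1.81, 0.18 and -0.16, although its second probe read 0.73 on replicate 3. The reductase Tm7sf2 was at 0.37 ± 0.54. Sc5d, a sterol desaturase, and Dhcr7, the reductase of the last step, lay on both sides of 0, at 0.03 ± 0.71 and 0.07 ± 0.73. The second Dhcr7 probe was at 0.52 ± 0.51 and read 0.76 on replicate 3, against -0.65 for the first.

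Of the 4 controllers of the pathway, 3 had means above 0, with array medians of 0.39, 0.08 and 0.39. On the single arrays 2, 3 and 3 of the 4 were above 0. Srebf2, which encodes the factor that mainly drives the sterol enzymes, read 0.94, -0.15 and 1.23, with a mean of 0.67 ± 0.73 (limma adjusted p = 0.703). Its signals were 1723, 263 and 654 in Cy3 and 2887, 575.5 and 286 in Cy5, lower on replicate 2 in Cy3 than on the others. Its second probe was at 0.07 ± 0.22, the widest gap between probes of any of these genes. That probe was dim, at 51.5 to 66.5 in Cy3 and 96.5 to 117.5 in Cy5, where a difference is hard to measure. Insig1, both a brake on SREBP and a target of it, read 1.47, 0.03 and 0.43, with a mean of 0.64 ± 0.75 (limma adjusted p = 0.703). Insig1 gave 521.5, 122 and 260 in Cy3 and 568.5, 237 and 199.5 in Cy5. Its second probe was at 0.44 ± 0.71.

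Scap, the escort of SREBP, read -0.86, 0.18 and -0.01, with a mean of -0.23 ± 0.55 (limma adjusted p = 0.823). Its Cy3 signals, 8884, 9068 and 10342, were similar on all arrays, and its Cy5 signals were 55520.6, 16695 and 14316.5. Srebf1, whose factor mainly drives fatty acid genes, was at 0.11 ± 0.26. With median centring it was at -0.45, where the median of all genes was -0.30. Scap and Srebf1 had their lowest ratio on replicate 1, where Cy5 reached 55520.6 and 56427.7 before correction.

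Among the genes that move sterols, Abca1 had the ratio farthest from 0 on any array among the 29 genes. Abca1 exports cholesterol from cells and is high in lipid-loaded macrophages. It read -3.99 on replicate 1, against -0.15 and 0.00 on replicates 2 and 3. Its uncorrected Cy5 signal was 28850.8 on replicate 1, against 274.5 and 204 on the others, and its Cy3 signals were 531, 125 and 173.5. Abca1 had 1 probe, so these values are checked by no other probe. The mean of -1.38 ± 2.26 (limma adjusted p = 0.716) rests on replicate 1 and was -0.07 without it. The macrophage and blood cell markers had array medians of -3.19, -2.52 and -2.84, and their summed normalised Cy5 signal was 445229 on replicate 1 and 84882 and 77391 on the others. Their part in the Abca1 value was not tested.

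Stard4, a soluble carrier of cholesterol, was above 0 on that array, at 1.38 against -0.29 and -0.28 (0.27 ± 0.96, limma adjusted p = 0.868). Its signals were 1667.5, 206 and 190 in Cy3 and 2037.5, 494.5 and 266.5 in Cy5. Its other probes had means of 0.33 and 0.37. Npc1, which passes cholesterol out of lysosomes, read -0.55, -0.18 and 0.42 (-0.11 ± 0.49, limma adjusted p = 0.921). Its signals were 415, 174 and 479 in Cy3 and 1948, 398 and 370.5 in Cy5. Stard4 turned to -0.04 with median centring.

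The fatty acid arm divided into genes with higher ratios and genes near 0. Scd1, the desaturase that makes oleate, read 1.39, 0.35 and 0.93, with a mean of 0.89 ± 0.52 (1.85-fold, limma adjusted p = 0.499). Its signals were 2740, 537 and 1412 in Cy3 and 3381.5, 840.5 and 768 in Cy5, and all ratios were above 0. Acly, which makes cytosolic acetyl-CoA from citrate, read 0.97, 0.12 and 1.13, with a mean of 0.74 ± 0.54 (limma adjusted p = 0.624). Acly gave 1470, 667.5 and 2678 in Cy3 and 2409.5, 1225 and 1326 in Cy5, so replicate 3 was at least as high as replicate 1 in Cy3. Elovl6, the elongase of palmitate, read 2.30, 0.45 and 0.13, with a mean of 0.96 ± 1.17 (limma adjusted p = 0.703), smaller than its spread. Its signals were 3017, 1292 and 1533 in Cy3 and 1957.5, 1887 and 1498 in Cy5.

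Near 0 after loess lay the core enzymes of the arm. Fasn, fatty acid synthase, was at -0.02 ± 0.31 and Acaca, acetyl-CoA carboxylase, at -0.03 ± 0.11. With median centring Fasn was at -0.69 and Acaca at 0.08, where the median of all genes was -0.30. Fasn read 43817.6 to 72547.8 in Cy5 before correction, and its second probe was at 0.22 ± 0.28. Acaca had Cy3 signals of 39 to 48 and Cy5 signals of 74 to 101, close to background, where a difference is hard to measure, and its second kept probe was at 0.13 ± 0.14. For both, the sign changed with the probe, and with Agilent's processed signals they were at 0.01 and 0.07.

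**Figure D2:**
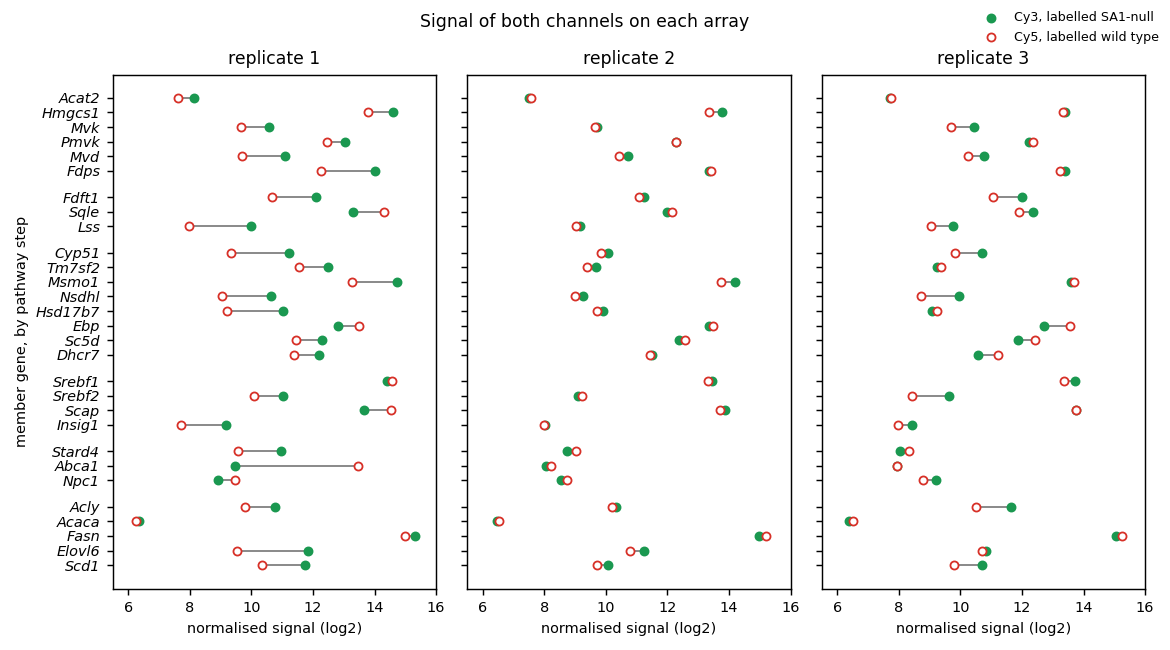
Normalised signal (log2, horizontal axis, made comparable between arrays) of the channel labelled SA1-null in Cy3 (filled) and the channel labelled wild type in Cy5 (open) for each gene, with 1 panel per array. On replicate 1 most filled points lie to the right, and Sqle, Ebp, Scap, Srebf1, Abca1 and Npc1 do not, while on replicate 2 the points nearly coincide.

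The 2 arms had similar medians on each array. The median of the sterol arm was 0.94, 0.12 and 0.06 on the 3 arrays, and that of the fatty acid arm was 0.97, 0.12 and 0.13. The difference, sterol minus fatty acid, was -0.03, -0.00 and -0.07 on the arrays, and -0.15 between the medians of gene means. The differences within arrays had an SD of 0.0366 and were all below 0, and with 3 arrays an exact two-sided sign test cannot go below p = 0.25. The difference of -0.15 is another quantity, taken after each gene was averaged over the arrays, so that SD does not measure its spread. It turned to 0.08 without replicate 3. With array weights, which count replicate 2 most, the arm medians were 0.31 and 0.38. Of the sterol genes 15 of 17 had means above 0 (10 with median centring), and of the fatty acid genes 3 of 5 (4 with median centring). With that centring the median of all genes was -0.30.

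**Figure D3:**
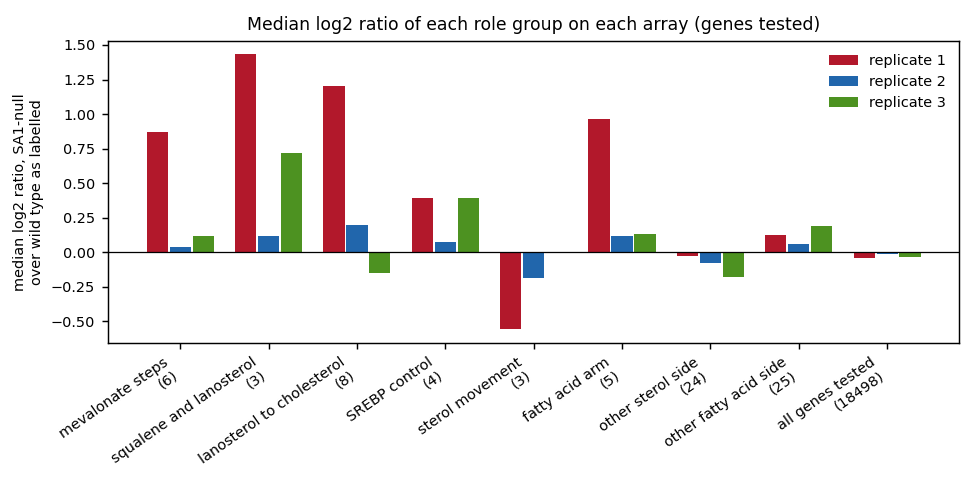
Median log2 ratio (vertical axis) of each role group on each array, with the number of genes tested in brackets and all genes at the right. The synthesis groups reach 0.87 to 1.43 on replicate 1 and at most 0.20 on replicate 2.

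Both channels were also compared between arrays after quantile normalization of their mean signals. In Cy3, labelled SA1-null, replicate 1 was the highest of the 3 arrays for 15 of 17 sterol genes (88.2%), as it was for 31.3% of all genes. In Cy5, labelled wild type, replicate 1 was the lowest for 8 of 17 (47.1%) and the highest for 5 of 17, beside 50.3% and 43.1% of all genes. The median Cy3 signal of the sterol genes was 12.20, 11.25 and 10.76 on the log2 scale and the median Cy5 signal 11.39, 11.07 and 11.05. Of the 5 fatty acid genes, replicate 1 was the highest in Cy3 for 3 (60%) and the lowest in Cy5 for 4 (80%). Replicate 1 was thus the highest in Cy3 for most genes of both arms. Its lowest Cy5 signal for 4 of 5 fatty acid genes stands beside 50.3% of all genes.

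Some of the bright signals of replicate 1 were read from a second scan at lower gain and scaled up by the scanner software. In Cy5 of replicate 1 this held for 8 of the 29 genes, Hmgcs1, Sqle, Msmo1, Ebp, Srebf1, Scap, Abca1 and Fasn, and 5 of these 8 had ratios below 0 there. Of the other 21, 1 was below 0 on that array. Over all genes, 60.2% of those scaled up in that way and 52.7% of the rest were below 0. On replicates 2 and 3 the scaling applied to Fasn alone. The part of this scan in the ratios was not tested.

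Where several probes of a gene were kept, their means over the arrays were mostly similar. Single arrays could differ more. On replicate 3 the 2 probes of Dhcr7 read -0.65 and 0.76, and those of Hsd17b7 read -0.16 and 0.73. Of 13 such genes, 11 had the same sign at every kept probe, and the median gap between the lowest and highest probe was 0.20. The gap was over 0.5 for Srebf2 alone, whose second probe was dim.

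**Figure D4:**
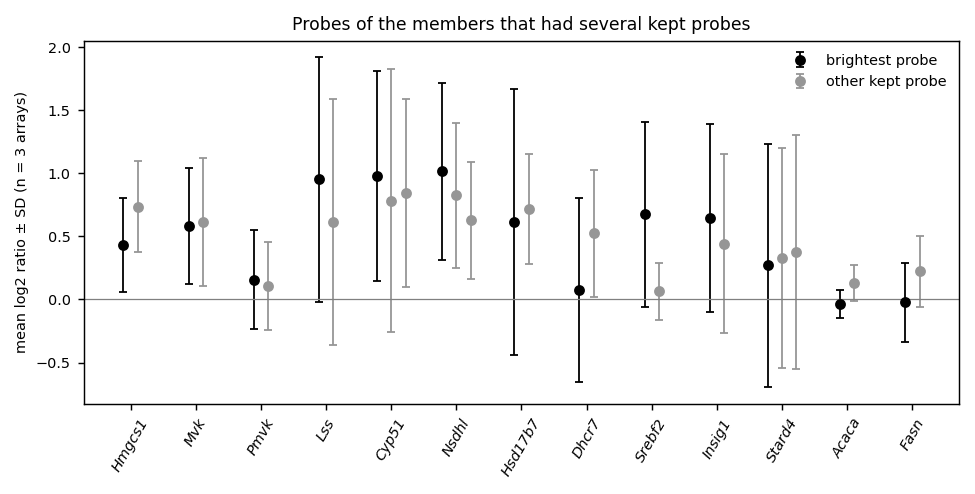
Mean log2 ratio ± SD over 3 arrays (vertical axis) of every kept probe of the 13 genes with several, the brightest in black. Probes of Mvk, Pmvk, Cyp51 and Stard4 lie together, and those of Acaca and Fasn fall on both sides of 0. Those of Srebf2 lie apart, and the second of them is dim.

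Other genes of lipid metabolism were taken from a list of 26 on the sterol side and 29 on the fatty acid side, and 24 and 25 of them were tested. None passed the limma test (0 of 24 and 0 of 25, with 3 and 5 at an unadjusted p under 0.05, beside 7.48% of all genes). On the sterol side 9 of 24 were above 0, with a median of -0.07. Nceh1, a cholesterol ester hydrolase of macrophages (-0.96 ± 0.51), Erlin2, a partner of Insig (-0.62 ± 0.41), and Ch25h, which makes an oxysterol that restrains SREBP (-1.76 ± 1.54), had the smallest p among those below 0. Above 0 these were the lipoprotein receptor gene Vldlr (0.65 ± 0.72), the lysosomal sterol carrier gene Npc2 (0.41 ± 0.37) and Faf2 (0.33 ± 0.37).

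On the fatty acid side 16 of 25 were above 0, with a median of 0.17. Tecr, a reductase of fatty acid elongation (0.73 ± 0.46), the malic enzyme Me1, which supplies NADPH (0.58 ± 0.38), and Agpat2 of glycerolipid synthesis (0.51 ± 0.32) had the smallest p above 0. Below 0 these were Hacd3, a dehydratase of elongation (-0.90 ± 0.70), the fatty acid ligase Acsl4 (-0.60 ± 0.49) and the lipogenic factor Mlxipl (-1.39 ± 1.98). Mlxipl read -3.68 on replicate 1 and -0.33 and -0.16 on the others, the same arrays as Abca1.

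Cell type markers were compared in the same way. Of 21 macrophage and blood cell markers 19 were tested, all 19 were below 0 on all arrays and 11 passed the limma test, with a median of -2.87. Their summed normalised signal was 8833 to 40896 in Cy3 and 77391 to 445229 in Cy5, highest on replicate 1 in both. None was at background in Cy5, and in Cy3 Itgam was well above background on 1 of 3 arrays and Spi1 on 2 of 3. Of 12 fibroblast markers 10 were tested, all 10 exceeded background in Cy3 and Cy5 on each array, and 9 had means above 0, with array medians of 1.09, 0.06 and 0.72. Of the adipocyte markers 5 of 10 were tested, with array medians of 0.66, -0.09 and -0.12 and 3 of the 5 below 0 (median -0.06). Pparg was at 1.09 ± 1.15, Cidec at 0.02 ± 0.15, Cebpa at -0.06 ± 0.22, Fabp4 at -0.35 ± 0.98 and Lpl at -0.58 ± 1.12. Of the endothelial markers 2 of 5 were tested, Emcn (0.81 ± 0.66) and Kdr (-1.14 ± 1.47). Of the epithelial markers 3 of 4 were tested, Krt8 (-1.02 ± 0.42), Krt18 (-0.75 ± 0.55) and Cdh1 (0.08 ± 1.08). In Cy3, Cidec and Cdh1 were well above background on only 2 of 3 arrays. The part of these cells in the other lipid genes was not tested either, and in bulk RNA fewer cells of a type and less RNA per cell cannot be told apart.

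The slide was fitted as a term in limma as well, which takes the spread from the arrays of slide 2 alone. In that fit 12 of the 29 genes passed, where 9.59% of all genes did, and the arm medians were 0.67 and 0.80. Of the 12, Abca1 alone was below 0, at -2.03, a mean of slide 1 and slide 2 that neither slide showed. The others of the 12 were above 0, and their values too are means of both slides. Over all genes, more of those that passed were below 0 than above.

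**Figure D5:**
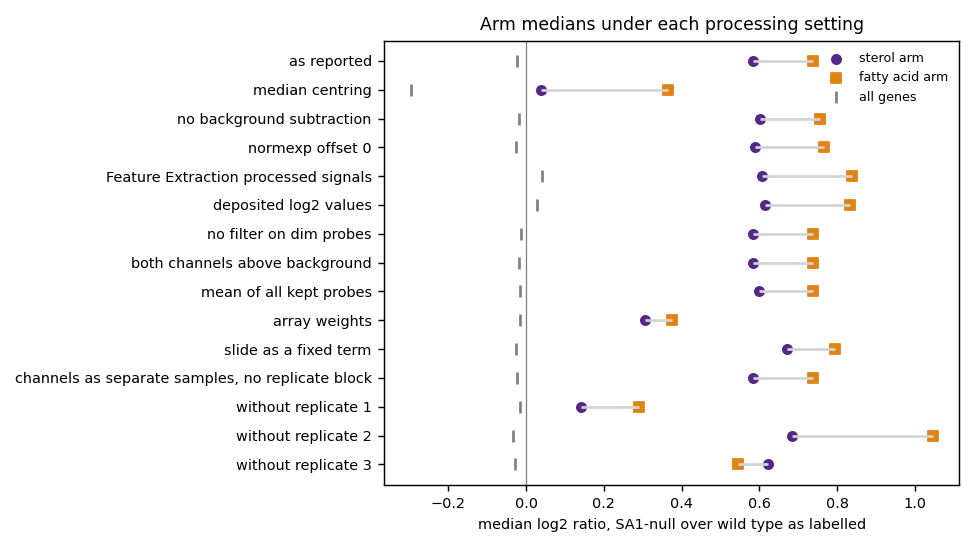
Median log2 ratio (horizontal axis) of the sterol arm, the fatty acid arm and all genes under each processing setting (vertical axis). Both arms stay above all genes in each setting, at 0.04 and 0.36 with median centring and at 0.14 and 0.29 without replicate 1.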

How the data were processed

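The deposited files hold intensity values per spot, written by Agilent Feature Extraction per the file headers, and a table of log2 values that the authors deposited. The latter ran as Cy5 over Cy3 with medians near 0, which was settled by setting them against the scanner values. The submitters' processing notes name limma. Here median spot signals were corrected with normexp (offset 50) and normalized by loess within arrays in limma 3.58.1 (R 4.3.3). Control and flagged spots were left out. Probes well above background in the same channel on all 3 arrays were kept (24032 of 41174), and the brightest kept probe stood for a gene. Log2 ratios were tested against 0 with lmFit and eBayes, with Benjamini-Hochberg adjustment over all 18498 genes and a threshold of 0.05. Symbols came from RefSeq (GRCm38.p6) by transcript accession.

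The members and lists were chosen with earlier results of these data known. The 3 genes of smallest p in each role group were given per array in both channels. Fdps, Msmo1 and Hsd17b7 were also given per array, chosen after their values were seen. Other pathway genes were the 3 of smallest p in each direction. On simulated data of 18498 genes the test recovered 1.49% of 2-fold, 52.2% of 4-fold and 72.7% of 8-fold changes. The number of arrays limits the precision.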

Additional observations from a re-analysis of the deposited data

How the results depend on the processing

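Of 406 values of the 29 genes under other settings, 363 kept direction and side of the threshold, 12 newly passed it and 31 changed sign, over 12 genes. The causes were not tested. All genes called numbered 132 at a threshold of 0.1, 34 with median centring, 118 without background subtraction, 265 at offset 0, 326 with processed signals, 0 without the filter on dim probes, 92 with both channels above background, 184 with array weights, 1774 with the slide as a term, 0 with channels as separate samples and no replicate block, and 0 to 284 on leaving out an array. With the slide as a term 12 of the 29 passed. The sterol median was 0.038 with median centring, and with array weights the sterol and fatty acid medians were 0.31 and 0.38. The sterol minus fatty acid difference was -0.33 with median centring, -0.23 with processed signals, -0.22 with deposited values, -0.069 with array weights and -0.36 to 0.078 on leaving out an array. Median centring moved the median of all genes to -0.30. Signs changed with median centring for Acat2 (-0.021), Hmgcs1 (-0.12), Pmvk (-0.31), Sc5d (-0.43), Dhcr7 (-0.32), Srebf1 (-0.45), Stard4 (-0.042) and Acaca (0.081). They changed without background subtraction for Acaca (0.0050), with processed signals for Npc1 (0.029), Acaca (0.072) and Fasn (0.0070), with deposited values for Npc1 (0.00026), with the mean of probes for Acaca (0.048) and Fasn (0.10), with array weights for Sc5d (-0.13), Scap (0.032) and Stard4 (-0.10), and with the slide term for Fasn (0.066). Leaving out an array gave Acat2 -0.035 to 0.27, Pmvk -0.064 to 0.30, Sqle -0.58 to 0.14, Sc5d -0.37 to 0.31, Dhcr7 -0.30 to 0.43, Srebf1 -0.015 to 0.24, Scap -0.43 to 0.085, Stard4 -0.29 to 0.55, Npc1 -0.37 to 0.12, Acaca -0.10 to 0.013 and Fasn -0.20 to 0.078. Median signal over background was 1.86 to 3 in Cy3 and 1.97 to 4.02 in Cy5, which limits dim genes such as Acaca.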

Other observations

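The values of 5 further genes of the lipid lists, chosen after their values were seen, had no common pattern over the arrays. Abcg1, a sterol exporter, read -3.33 on replicate 1 and -0.17 and -1.14 on replicates 2 and 3. Mid1ip1, a regulator of acetyl-CoA carboxylase, read -2.18, 0.06 and -0.38. Nr1h3 read 0.18, -0.81 and -0.75, with a mean normalised signal of 7.26 in Cy3 and 7.72 in Cy5 (log2). Mylip read -0.06, 0.18 and -0.26. Dgat2, which makes triglyceride, read 2.31, 0.37 and -0.38. None passed the limma test (adjusted p from 0.672 to 0.955).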
